A study of Mus musculus with 6 samples.

Results

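Gene expression 2 h after CpG B was compared between macrophages deficient in Irak2 and wild-type macrophages, with 1 array each. A gene belonged to the comparison if its detection p-value was under 0.01 on at least 1 of these 2 arrays, which held for 6967 of the 16593 genes measured. Over all 6 arrays of the series, 7149 genes were detected at least once. Both macrophage populations came from female mice of strain 129/BL6, were grown for 5 days from bone marrow in medium conditioned by L929 cells, and received 1 µg/ml CpG B. The labels give the knockout as IRAK2 deficient and name no allele. The series also holds untreated macrophages and macrophages given 1 µg/ml R848 for 2 h, again 1 array per genotype, and these 4 arrays share none with the CpG B pair. The labels name no separate animals or cultures, so the number of arrays limits every statement. Neither CpG B array has a replicate, and any p-value below takes its spread from other conditions or from untreated arrays.

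CpG B oligonucleotides are unmethylated DNA that enters endosomes and activates Toll-like receptor 9, whereas R848, a small imidazoquinoline, is a ligand of mouse Toll-like receptor 7. Both receptors recruit MyD88, which assembles IRAK4, IRAK1 and IRAK2 into a signalling complex that activates TRAF6, NF-kB and the MAP kinases. IRAK2 is known for sustaining this signal and the mRNA of inflammatory genes in macrophages, and Irak2 is itself induced by Toll-like receptor ligands.

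Each array detected 8968 to 9718 of 25697 probes. The wild-type CpG B array was brighter than the knockout CpG B array before normalization, with median intensities of 27.7 and 21.4, so intensities below are background-subtracted values as deposited, and differences are given on the normalized log2 scale as knockout minus wild type. A gene was counted where this difference was 1 or more in size, which is 2-fold. For scale, a second untreated array of each genotype could be recovered from the submitters' processed values, and 22 of 6547 genes (0.336%) were 2-fold apart within the wild-type pair and 16 of 6543 (0.245%) within the knockout pair; these pairs may be technical. The macrophage identity list had 16 of 25 genes detected on the CpG B pair, with a median difference of 0.16. Of these, 0 were at 2-fold, against 2.73% of all genes. Adgre1, the macrophage surface marker F4/80, read 23404 in wild type and 16698 in the knockout, a log2 difference of -0.12.

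After CpG B, 190 of 6967 genes (2.73%) differed by 2-fold or more, 115 of them higher in the knockout (1.65%) and 75 lower (1.08%). Most of the transcriptome lay close to the diagonal, with 65.7% of genes within 0.25 log2 units and 88.3% within 0.5. The genes farthest above it were Ctse, an aspartic protease of the endosome, and Ifitm1, an interferon-inducible membrane protein. Usp25, a deubiquitinase, and Plk1, a mitotic kinase, lay farthest below it. All 190 genes kept their direction in the submitters' processed values, and 187 were again at 2-fold. Of the 190, 126 were detected on both arrays and 64 were below background on the dimmer one. For such genes the fold is a lower bound, the bright value divided by the dim value or by the array's lowest detected signal, whichever is higher; this bound reached 2-fold for 27 and stayed under 2 for 37. Taking a detection p under 0.05 widened the comparison to 7955 genes and the count to 198.

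**Figure D1:**
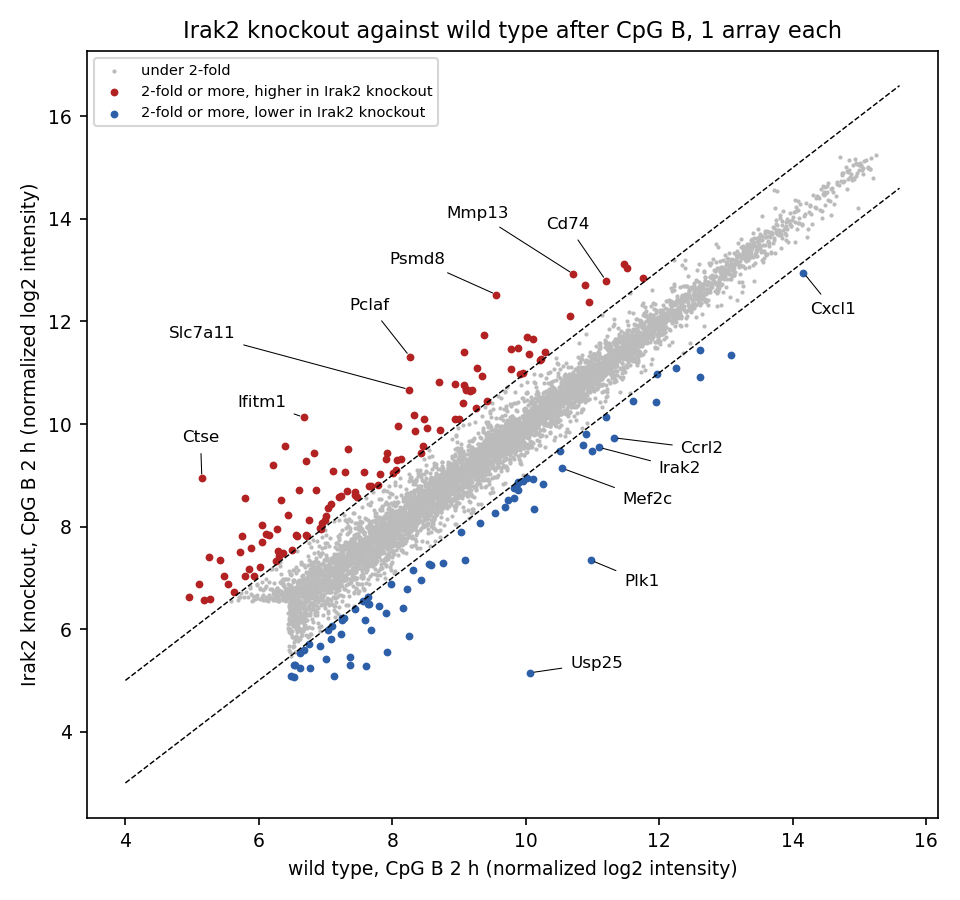
Normalized log2 intensity of the 6967 genes on the wild-type CpG B array (x axis) and the Irak2 knockout CpG B array (y axis); dashed lines mark 2-fold. The 115 genes above the upper line (red) and the 75 below the lower line (blue) stand off a narrow diagonal, and Usp25 lies farthest from it.

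Irak2 was detected on both arrays, at an intensity of 2618 in wild type and 622 in the knockout, a log2 difference of -1.54. On the other wild-type arrays it read 534 untreated and 3695 after R848, and on the other knockout arrays 378 and 835. At this probe, signal was thus lower in the knockout in all 3 conditions but not absent, and the gap was widest after stimulation. A second Irak2 probe gave log2 differences of -1.38 after CpG B and -1.88 after R848 but only -0.11 untreated. The untreated gap therefore rests on the first probe. The sources used here do not place these probes relative to the disrupted part of the gene, and they do not check the labels. Around it in the receptor pathway, the list of Toll-like receptors, adaptors and kinases had 32 genes detected, with Irak2 the only one at 2-fold and a median of -0.02. Myd88, the shared adaptor, differed by -0.05, Irak1 by -0.16, Irak3, an inhibitory member of the family, by 0.39, and Tlr7 by 0.01. Of 11 NF-kB subunits and IRF factors, 0 were at 2-fold, with a median of -0.11, and of 10 immediate early factors such as Fos and Egr1, likewise 0. Over all genes 2.73% were at 2-fold, so lists this short would hold few such genes or none at that share.

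Of the 115 genes higher in the knockout after CpG B, 51 were genes that R848 induces in wild type. Genes were grouped by the difference between the wild-type R848 and untreated arrays, which the CpG B pair does not use; this grouping was chosen after values had been seen. Of 496 genes that were 2-fold or more higher after R848, 51 (10.3%) were 2-fold higher in the knockout after CpG B and 8 (1.61%) were lower, against 1.65% and 1.08% of all genes. Of 499 genes that were 2-fold or more lower after R848, 9 (1.8%) were higher in the knockout and 28 (5.61%) were lower. Among the 5972 genes with a smaller R848 response, 55 (0.921%) were higher and 39 (0.653%) lower. Some of these genes were detected on only 1 of the 2 CpG B arrays. Among genes detected on both CpG B arrays, 43 of 470 R848-induced genes (9.15%) were higher and 7 (1.49%) lower, and 6 of 438 R848-repressed genes (1.37%) were higher and 17 (3.88%) lower, with medians of 0.21 and -0.21.

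The shift ran through these groups and was small for most of their genes. The median difference after CpG B was 0.21 for the R848-induced genes, with quartiles of -0.03 and 0.53, and -0.24 for the R848-repressed genes, with quartiles of -0.46 and -0.03. The knockout array was above the wild-type array for 71.8% of the induced genes and for 22.6% of the repressed genes, against 47.5% of all 6967. In untreated cells the same medians were 0.06 and -0.02. After R848 they were -0.5 and 0.43, but that difference shares the wild-type R848 array with the grouping and so is not a separate reading. As levels, the median R848-induced gene stood at 9.21 on the wild-type CpG B array and 9.49 on the knockout CpG B array, between 10.11 and 9.59 on the R848 arrays of wild type and knockout and 7.81 and 7.84 on their untreated arrays. Grouping by the knockout's own R848 response gave 384 induced genes, of which 49 (12.8%) were 2-fold higher in the knockout after CpG B, and 288 repressed genes, of which 24 (8.33%) were 2-fold lower.

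**Figure D2:**
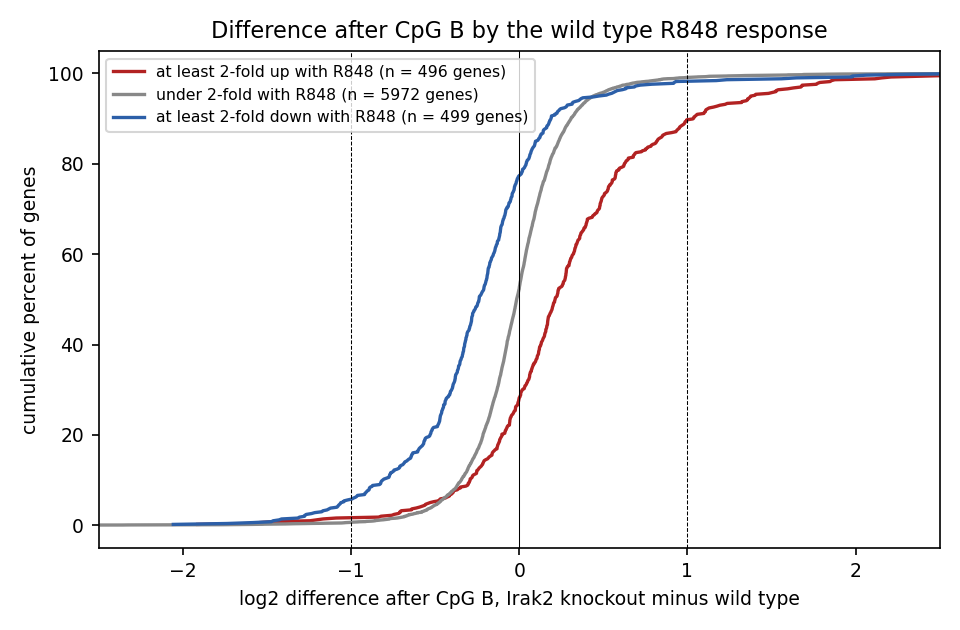
Cumulative percent of genes (y axis) by log2 difference after CpG B, knockout minus wild type (x axis), for genes at least 2-fold up (red, 496), under 2-fold (grey, 5972) or at least 2-fold down (blue, 499) with R848 in wild type; dashed lines mark 2-fold. The red curve lies to the right of the grey one and the blue curve to the left, with medians of 0.21, -0.02 and -0.24.

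Sequence upstream of these genes is shown because they were higher together. RefSeq promoters of assembly GRCm38.p6, from 250 bases before to 50 bases after a gene start, were found for 38 of the 51 R848-induced genes higher in the knockout, 52 promoters in all. The AP-1 motif TGANTCA was present in 11 of them (21.2%), against 8.78% of 524 promoters of all R848-induced genes and 7.81% of all 32851 promoters. A kappaB-like motif, GGGNNTTNCC, was present in 7.69%, against 10.1% and 4.79%. An ISRE-like motif, GAAANNGAAA, was present in 9.62%, against 7.82% and 3.44%. All were searched on both strands. Of the 32 promoters of R848-repressed genes lower in the knockout, AP-1 was in 6.25%, the kappaB-like motif in 3.12% and the ISRE-like motif in 9.38%. These are matches of letters in a window and say nothing of binding. The 4 promoters below are examples. They belong to genes with an AP-1 match and 1 promoter that were 2-fold higher in the knockout after CpG B but not in the other conditions. Further limits were set on which promoters are printed, so the 4 need not be all that meet these conditions. Capitals mark AP-1 matches and, in Mmp13, also 1 ISRE-like match. Mmp13 lies at chr9:7272264-7272563 on the plus strand, Il1a at chr2:129309923-129310222 on the minus strand, AA467197 at chr2:122637637-122637936 on the plus strand and Klra2 at chr6:131247313-131247612 on the minus strand. Counted from the gene start, the AP-1 match begins at position -35 in Mmp13, -12 in Il1a, -73 in AA467197 and -6 in Klra2.
Mmp13: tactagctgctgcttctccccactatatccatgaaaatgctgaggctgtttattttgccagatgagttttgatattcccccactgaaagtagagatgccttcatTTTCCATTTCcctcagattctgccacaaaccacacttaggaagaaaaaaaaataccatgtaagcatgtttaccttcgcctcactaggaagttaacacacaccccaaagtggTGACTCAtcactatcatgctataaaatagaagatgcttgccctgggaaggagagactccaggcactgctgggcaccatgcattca
Il1a: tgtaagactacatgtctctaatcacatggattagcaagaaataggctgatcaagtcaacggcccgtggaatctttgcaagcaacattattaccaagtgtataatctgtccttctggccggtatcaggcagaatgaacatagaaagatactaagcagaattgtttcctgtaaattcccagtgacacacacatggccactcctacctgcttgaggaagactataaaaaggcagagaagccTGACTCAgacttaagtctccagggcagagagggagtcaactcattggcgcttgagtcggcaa
AA467197: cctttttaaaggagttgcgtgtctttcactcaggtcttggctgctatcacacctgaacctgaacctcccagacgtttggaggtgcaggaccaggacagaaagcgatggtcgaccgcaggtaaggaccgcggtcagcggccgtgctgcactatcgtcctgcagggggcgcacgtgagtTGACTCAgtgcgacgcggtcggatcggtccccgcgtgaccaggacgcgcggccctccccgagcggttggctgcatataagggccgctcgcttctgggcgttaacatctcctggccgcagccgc
Klra2: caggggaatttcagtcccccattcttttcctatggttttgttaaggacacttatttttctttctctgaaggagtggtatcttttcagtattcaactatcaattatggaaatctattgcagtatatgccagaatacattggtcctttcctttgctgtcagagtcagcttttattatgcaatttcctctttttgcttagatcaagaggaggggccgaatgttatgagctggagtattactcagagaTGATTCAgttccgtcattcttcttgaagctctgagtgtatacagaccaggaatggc

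Of the 190 genes, 82 were at 2-fold in the same direction after CpG B but not in untreated cells or after R848, 46 higher and 36 lower. The count rests on a threshold, since 177 of the 190 had the same sign in untreated cells. The interaction of genotype with CpG B was tested with limma over all 7149 genes and called 0 (0%) at an adjusted p under 0.05, with a smallest adjusted p of 0.994 on 1 residual degree of freedom; 286 had an unadjusted p under 0.05. No gene can therefore be said to differ after CpG B alone.

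Among cytokines, Il1rn, the secreted antagonist of the interleukin-1 receptor, read 577 in wild type and 1482 in the knockout after CpG B, a log2 difference of 1.85. Its untreated values were 164 and 305, and after R848 they were 5552 and 3599, so that the knockout was above wild type untreated and after CpG B and below it after R848. Il1a, which encodes interleukin-1 alpha, read 84.8 and 246 after CpG B. It was undetected on the wild-type array, so the knockout was at least 3.44-fold higher. Il1a was undetected in both untreated samples (1.9 and 4.7). After R848 it read 1885 in wild type and 682 in the knockout, the opposite order. Osm, oncostatin M, was at 578 and 907, a difference of 1.16, and was also higher in the knockout in the other conditions, by 0.56 and 0.84. Csf3, the granulocyte growth factor, read 51.6 and 100.3, which gives a bound of only 1.5-fold. These were 4 of 13 detected cytokine genes, against 1.65% of all genes at 2-fold higher. Il18 was the only gene of the cytokine list at 2-fold in the other direction, against 1.08% of all genes, and the median of the list was 0.34. Il15, a cytokine outside the list, differed by -1.09.

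Several of the genes at 2-fold higher encode proteases, their inhibitors or matrix proteins, and these are named from the higher genes; Plau, the urokinase, differed by -0.05 and Ctss by -0.39. Mmp13, collagenase 3, read 334, 15594 and 2015 on the untreated, R848 and CpG B arrays of wild type and 559.6, 13878 and 6575 on those of the knockout. The genotypes were close after R848, with a log2 difference of 0.04, and apart after CpG B, with 2.21, and both other Mmp13 probes that were detected gave 1.32 and 2.27. Mmp14, the membrane-bound metalloproteinase, read 679.5 and 1339.5 after CpG B, a difference of 1.48, and was undetected in both untreated samples. Serpinb2, the plasminogen activator inhibitor PAI-2, was undetected in wild type at 72.9 and read 200.3 in the knockout, at least 2.84-fold higher. Thbs1, thrombospondin 1, was likewise undetected in wild type and read 88.7 in the knockout, with a bound of 1.35-fold. Slpi, a secreted inhibitor of leukocyte proteases, read 1265 and 2224, a difference of 1.32.

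Some carriers and enzymes were also higher in the knockout, named here from the genes at 2-fold higher, whereas the carriers Abcg1 and Slc45a4 differed by -1.47 and -1.32. Slc7a11, the cystine-glutamate exchanger, read 355 in wild type and 1374 in the knockout after CpG B, a log2 difference of 2.42. It was undetected in both untreated samples, at -9.2 and 10.4, and close between genotypes after R848, at 1887 and 2190.4. Slc7a2, a carrier of arginine, was undetected in wild type at 10.6 and read 133 in the knockout, with a bound of 1.96-fold. Upp1, uridine phosphorylase, read 175 and 339, a difference of 1.38, and Arg2, mitochondrial arginase, read 128 and 203, a difference of 1.05. Aqp9, a channel for water and glycerol, differed by 1.68. On none of these did the knockout CpG B array exceed the knockout R848 array.

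Receptors and regulators at 2-fold higher included Tnfrsf1b, the second TNF receptor, with 214 in wild type and 439.7 in the knockout and a difference of 1.50. Batf, an AP-1 family transcription factor, read 634 and 1140.2 after CpG B, a difference of 1.36, and 1839.8 and 1202 after R848. Marco, a scavenger receptor, differed by 1.24, and Cd274, the inhibitory ligand PD-L1, by 1.05, from 1423 to 2049. Cd86, a costimulatory ligand, differed by 1.03 after CpG B, 0.70 untreated and 0.83 after R848. Mx2, an interferon-inducible GTPase, read 430.5 and 803, a difference of 1.40.

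**Figure D3:**
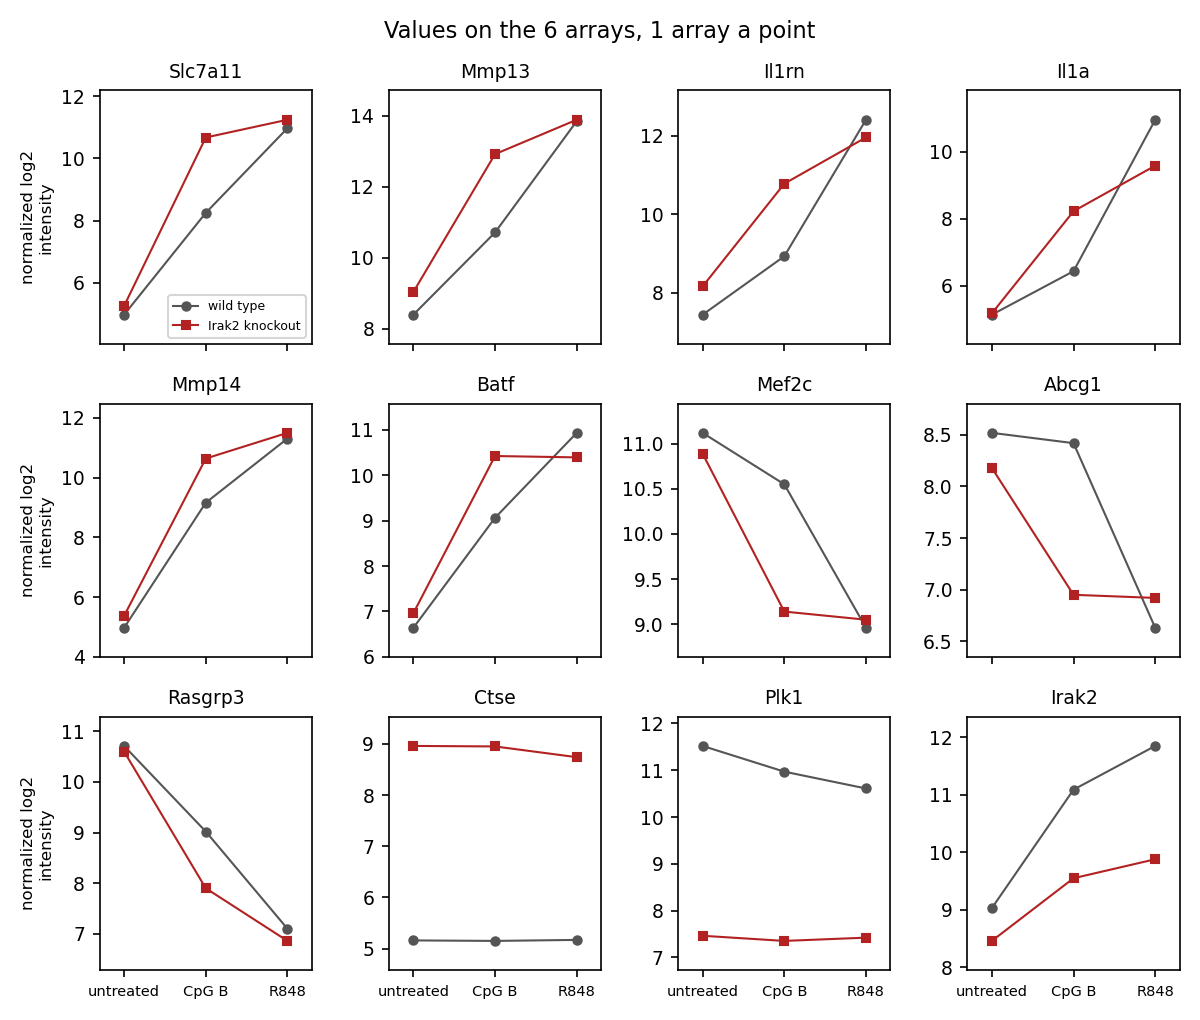
Normalized log2 intensity (y axis) on the 6 arrays, 1 array a point, by condition (x axis) for wild type (grey circles) and Irak2 knockout (red squares) in 12 genes. For Slc7a11, Mmp13 and Mmp14 the knockout is near wild type after R848 and above it after CpG B. Untreated, Mmp13 differs by 0.64, and Slc7a11 and Mmp14 are undetected in both genotypes. For Mef2c and Abcg1 the knockout is below wild type after CpG B, and for Ctse and Plk1 the genotypes are apart in all 3 conditions.

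Of the 75 genes lower in the knockout after CpG B, 28 were ones that R848 lowers in wild type. Mef2c, a transcription factor of myeloid and lymphoid cells, read 2292, 422 and 1805 on the untreated, R848 and CpG B arrays of wild type and 1988, 466 and 461 on those of the knockout. The knockout CpG B array thus lay at the level of both R848 arrays and the wild-type CpG B array near the untreated ones, a difference of -1.41, and a second Mef2c probe gave -1.39. Abcg1, an exporter of cholesterol, followed the same order, with 402 in wild type and 94.6 in the knockout after CpG B, a difference of -1.47, against 70.2 and 98.1 after R848. Zdhhc14, a palmitoyltransferase, read 1473 and 376, a difference of -1.43. Rasgrp3, an activator of Ras and Rap, read 615 and 192, a difference of -1.12, and Gcnt1, a glycosyltransferase of O-glycans, 2847 and 942, a difference of -1.07. St6gal1, a sialyltransferase, differed by -1.06 and Ung, the uracil-DNA glycosylase, by -1.14. Ptpn22, a phosphatase of immune receptor signalling, differed by -1.27. Hpgd, which inactivates prostaglandins, was undetected in the knockout at 16.7 and read 138 in wild type, with a bound of only 1.38-fold.

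The gene lists differed in their medians after CpG B. All 14 detected secondary response genes, which depend on new protein synthesis or chromatin remodelling, were above 0, with a median of 0.58. Of all genes 47.5% were above 0, and of the R848-induced genes 71.8%. In this list 3 genes were at 2-fold, namely Mmp13, Marco and Csf3, and its median after R848 was -1.25. The median over all genes was -0.02. Effector enzymes had a median of 0.48 with 4 of 18 at 2-fold higher and 0 lower, and costimulatory and adhesion molecules a median of 0.32 with 2 of 14 higher and 0 lower. Over all genes 1.65% were higher and 1.08% lower at this size. Members of several lists had wide differences after R848 but not after CpG B. Il6 read 496 and 369 after CpG B, a log2 difference of 0.09, and 2774 and 497 after R848, a difference of -2.32. Il10, an anti-inflammatory cytokine, differed by -0.30 after CpG B and -2.46 after R848, and Il1b by 0.76 and -1.47. Tnf read 19475 and 10168 after CpG B, a difference of -0.47, and differed by -1.02 after R848. Interferon-related genes had a median of 0.20 with 2 of 33 at 2-fold, Ifitm1 and Mx2, and negative feedback regulators a median of 0.06 with 2 of 24, Cd274 and Cish. Nfkbia, the classical NF-kB inhibitor, differed by 0.06. The other lists were near 0, with medians of -0.07 for 26 cell-cycle and for 16 cholesterol synthesis genes, 0.08 for 17 glycolysis and hypoxia genes, 0.11 for 18 heat shock and stress genes, -0.02 for 18 transcripts with AU-rich elements and -0.05 for 9 reference genes. Their members at 2-fold were Plk1 and Pclaf, Dhcr7, Slc7a11 and Atf4, and Cxcl1, Il1a and Csf3.

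**Figure D4:**
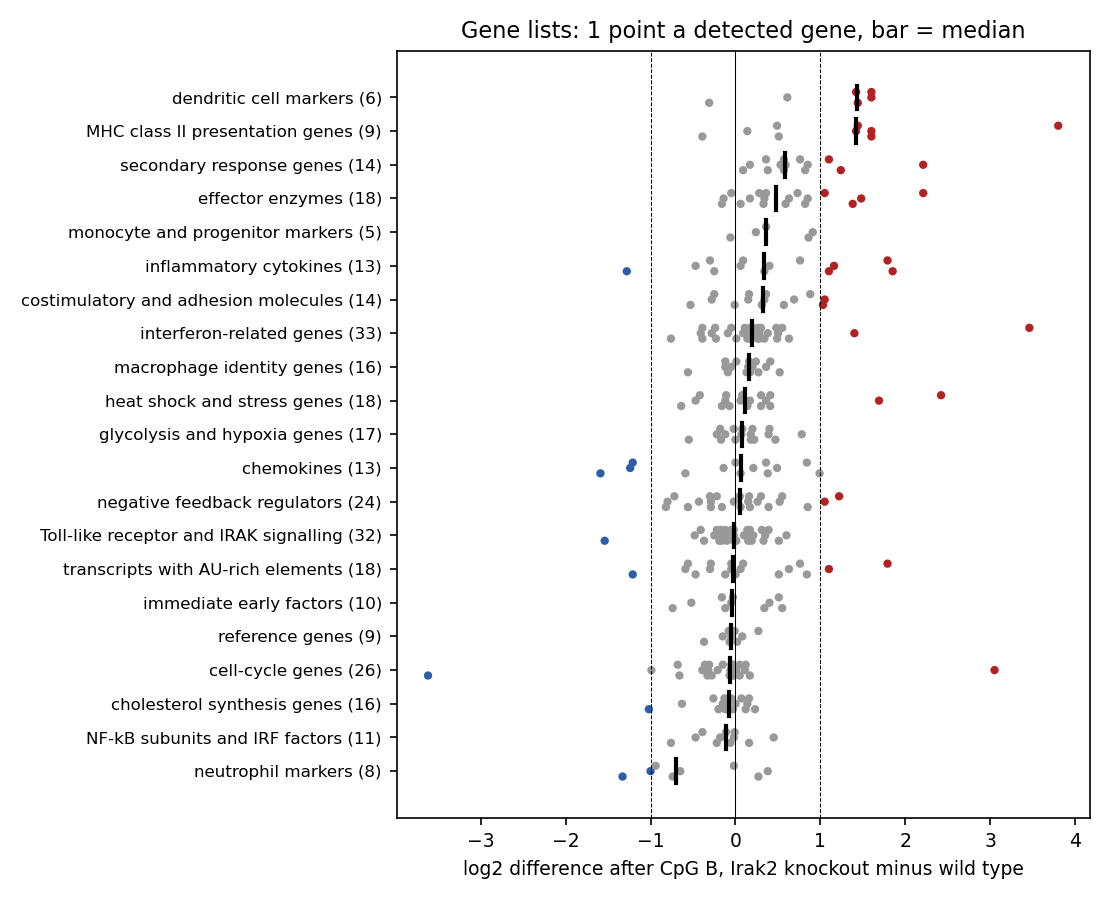
Log2 difference after CpG B, knockout minus wild type (x axis), of each detected gene in lists with at least 5 detected genes (y axis, number detected in parentheses); black bars mark the medians, dashed lines 2-fold. MHC class II genes and the dendritic cell markers that include them lie farthest to the right, secondary response genes have a median of 0.58, and neutrophil markers have the lowest median, -0.70.

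In the chemokine list, 0 of 13 detected genes were 2-fold higher and 3 were 2-fold lower in the knockout, against 1.65% and 1.08% of all genes, with a median of 0.06. Ccl17, a chemokine outside that list, was undetected in wild type after CpG B at -12.7 and read 73.0 in the knockout, with a bound of only 1.14-fold. Cxcl1, a neutrophil chemoattractant, read 20845 in wild type and 6758 in the knockout after CpG B. It was also lower in the knockout untreated, at 217 against 77.8, and after R848, at 36832 against 13397. The genotype effect on Cxcl1 over the 3 conditions, from limma's additive fit of all 6 arrays, was -1.31 ± 0.10 (SE) with an adjusted p of 0.0038. Against the spread between the recovered untreated pairs, a limma fit described further on, its CpG B difference was -1.22 ± 0.72 and was not called (adjusted p of 0.638). Cxcl2, a chemokine of the same kind, differed by -0.59 after CpG B and fell by 1.05 ± 0.17 over the 3 conditions in the additive fit, with an adjusted p of 0.0351. Ccl6 fell by 1.46 ± 0.15 with an adjusted p of 0.0115. Ccrl2, an atypical chemokine receptor, read 3087 and 708 after CpG B, a difference of -1.59, against -0.36 untreated and -2.98 after R848, and limma did not call it over the 3 conditions (adjusted p of 0.147) but did in the fit with the recovered arrays (0.0394). The cytokine Il18 read 894 and 250.0 after CpG B and fell by 1.69 ± 0.19 over the 3 conditions, with an adjusted p of 0.0134. Ccl2, which attracts monocytes, went the other way, by 0.84 after CpG B and by 0.85 ± 0.12 over the 3 conditions, with an adjusted p of 0.0267. The fit with the recovered arrays called none of Cxcl2 (0.794), Ccl6 (0.12), Il18 (0.161) and Ccl2 (0.336).

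A second large set of genes differed between genotypes whether or not the cells had been stimulated. Of the 190, 63 were at 2-fold in the same direction in all 3 conditions, 43 higher and 20 lower. Ctse was undetected on every wild-type array, between 2.6 and 2.8, and read 531 untreated, 374 after R848 and 405 after CpG B in the knockout, at least 5.67-fold higher after CpG B. Usp25 was the reverse, with 775 to 1329 on the wild-type arrays and -10.6 to 2.2 on the knockout arrays, so that the knockout was at least 11.4-fold lower after CpG B. Plk1 read 2419.7 in wild type and 127 in the knockout after CpG B, a fold of 12.3, and Pclaf, a PCNA-binding protein, read 358 and 2153, a fold of 8.31 the other way. These were the only 2 of 26 cell-cycle genes at 2-fold, against 2.73% of all genes, and 19 of the 26 were below 0. Mcm6, a replication helicase subunit, differed by -0.99 and Tyms, thymidylate synthase, by -0.68 after CpG B, both called lower by the additive fit (adjusted p of 0.0313 each), whereas Cdk1 and Top2a differed by 0.05 and 0.12. Ifitm1 read 104 and 936 after CpG B, a fold of 11.0, and Psmd8, a proteasome subunit, 909 and 5115, a fold of 7.79. Haus1, a subunit of the augmin complex, was undetected in wild type at 80.6 and read 627 in the knockout, at least 8.70-fold higher. Hal, histidine ammonia-lyase, differed by 2.32, Atf4, the transcription factor of the integrated stress response, by 1.69, and Apobec1, a cytidine deaminase, by 1.65. On the lower side Uchl1, a ubiquitin hydrolase, differed by -2.36 with a bound of 2.59-fold.

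Between these sets were 23 genes at 2-fold after CpG B and untreated, 13 higher and 10 lower, and 22 at 2-fold after CpG B and R848, again 13 higher and 9 lower. The first included Fcgr2b, the inhibitory Fc receptor. In wild type it read 327 untreated and 1335 under CpG B, and the knockout had 1336 and 2683, a log2 difference of 1.54 after CpG B. Tgfbr2, a receptor for TGF-beta, read 10224 and 2184 after CpG B, a difference of -1.74, and differed by -1.31 untreated and -0.97 after R848. The second included Irak2 itself and Odc1, the first enzyme of polyamine synthesis, which read 2293 and 5777 after CpG B, a difference of 1.83. Alas1, the first enzyme of heme synthesis, read 3596 in wild type and 7118 in the knockout, a difference of 1.52, and differed by 1.61 after R848 and 0.34 untreated. Il15, a cytokine for lymphocytes, was lower, at 2325 and 750.1, a difference of -1.09.

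Among the 18 gene lists, MHC class II presentation had the highest median. Of 9 detected genes for class II presentation, 5 were at 2-fold higher in the knockout and 0 lower, against 1.65% and 1.08% of all genes. The median of the 9 was 1.42 after CpG B, 1.62 untreated and 1.23 after R848. Cd74, the invariant chain, read 2836 in wild type and 6093 in the knockout after CpG B, and H2-Ab1, a class II beta chain, 1954 and 3746. Limma's additive fit called H2-Aa, H2-Ab1, H2-Eb1, Cd74 and Ctse, with effects of 1.50 to 1.53 ± 0.11 to 0.15 for the first 4 and adjusted p-values of 0.00302 to 0.00885. The fit of the CpG B difference with the recovered untreated arrays called Ctse (0.00514) and none of these 4, whose adjusted p-values were 0.111 to 0.241. The 3 detected H2-Ab1 probes beside the chosen one gave 1.81, 1.46 and 1.69 after CpG B. H2-DMa and H2-DMb1, which load peptides, differed by 0.51 and 0.49, and Ctss, the protease that trims the invariant chain, by -0.39.

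H2-Aa, H2-Ab1, H2-Eb1 and Cd74 also stood in the marker set for dendritic cells. Of its 14 genes 6 were detected, and the summed level was 12.97 in wild type and 14.38 in the knockout on the log2 scale. Flt3, Zbtb46, Itgax, Xcr1 and Clec9a were undetected on both arrays, Bst2 differed by 0.61 and Siglech by -0.31. Neutrophil markers, 8 of 11 detected, were lower in sum, at 13.99 and 13.35, with a median of -0.70. Limma's additive fit called 4 of them lower in the knockout over the 3 conditions, namely Ltf, S100a9, Ngp and Camp, with effects of -1.30 ± 0.10, -0.89 ± 0.10, -0.78 ± 0.11 and -0.60 ± 0.10 and adjusted p-values of 0.0038 to 0.0366. It called 1 without the CpG B arrays, and the fit with the recovered untreated arrays called 0, with Ltf at -1.33 ± 0.82 (0.661) and S100a9 at -0.97 ± 0.54 (0.616). Elane differed by -0.02 and Mpo by 0.38. In these bulk samples fewer cells of a type and less RNA per cell cannot be told apart, and the part of other cells in the genotype differences was not tested. Markers of T and NK cells, mast cells and basophils, erythroid cells and fibroblasts had 0 detected genes. B cell markers had 1, Cd79b, with a difference of 0.29. Monocyte and progenitor markers had 5, with 0 at 2-fold, against 2.73% of all genes.

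By chromosome, the share of genes at 2-fold after CpG B was highest on chromosome 9, with 28 of 392 (7.14%), 17 higher and 11 lower, and next on chromosome 6, which carries Irak2, with 17 of 345 (4.93%). Among autosomes it was lowest on chromosome 19, with 2 of 262 (0.763%). Of the 28 genes on chromosome 9, 14 were at 2-fold in all 3 conditions, among them Pclaf, Lars2, Atm, Il18 and Cadm1, whereas 3 of the 17 on chromosome 6 were. The gene next to Irak2, Vhl, which encodes the subunit that marks HIF for degradation, read 697 in wild type and 1367 in the knockout after CpG B, a difference of 1.48, against 0.87 untreated and 1.83 after R848. Limma's additive fit gave Vhl an effect of 1.39 ± 0.19 with an adjusted p of 0.024. Tatdn2, on the other side, differed by 0.83. Of the 17 detected glycolysis and hypoxia genes, 10 were above 0 and 6 below after CpG B. Pkm, Vegfa, Hif1a, Slc2a1 and Egln3 differed by 0.78, 0.47, 0.40, 0.39 and 0.18, and Pdk1 and Hk1 by -0.55 and -0.17. The additive fit called Pkm (0.94 ± 0.11, adjusted p of 0.0135) and Vegfa (0.63 ± 0.11, 0.0432) higher and 0 of the list lower.

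**Figure D5:**
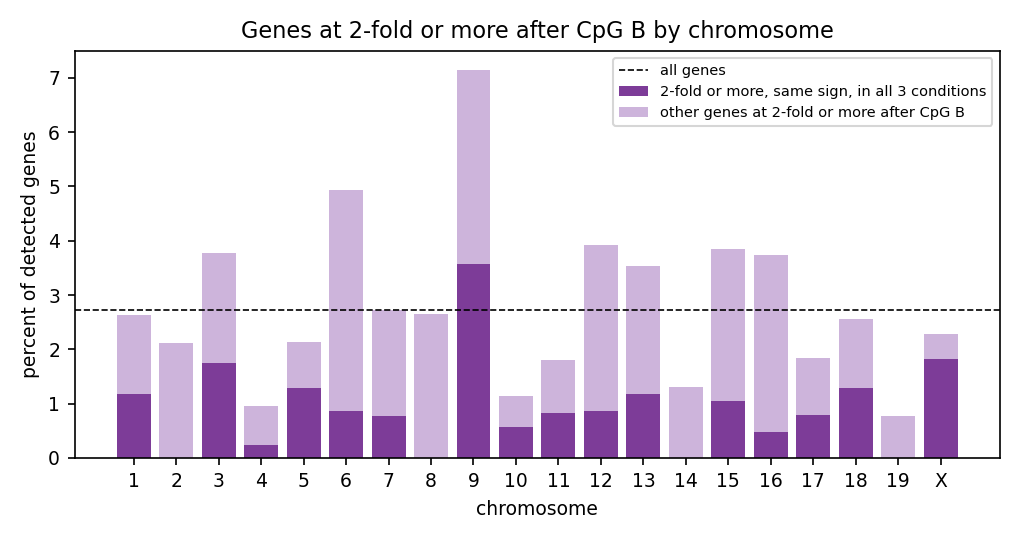
Percent of detected genes at 2-fold or more after CpG B (y axis) by chromosome (x axis), split into genes at 2-fold in all 3 conditions (dark) and others (light); the dashed line is the share over all genes, 2.73%. Chromosome 9 reaches 7.14%, and the 14 dark genes there are more than on any other chromosome shown.

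The additive limma fit, which takes the spread of the genotype difference over the 3 conditions as error, called 243 of 7149 genes (3.4%), 126 higher and 117 lower, with a smallest adjusted p of 0.00046. It includes the CpG B pair, and its count was 9 without the untreated arrays and 279 without the R848 arrays. Of the 190 genes, 110 were among them, 68 higher and 42 lower, and these held all 63 genes at 2-fold in every condition but 16 of the 82 at 2-fold after CpG B alone. All of these sets had been chosen on arrays that the additive fit uses, so such counts are no separate support. The additive fit did not call Irak2 itself, at -1.36 ± 0.26 (adjusted p of 0.0609). Nor did the limma fit without the CpG B arrays, given next (adjusted p of 0.182). Fitted without the CpG B arrays, on 1 residual degree of freedom, 90 genes (1.26%) were called, and 70 of these were among the 190, 62 of them from the 63, which had been chosen on these arrays too. Another fit set the CpG B difference against the spread between the recovered untreated pairs, assuming that stimulated arrays vary like untreated ones. The 190 genes, and the 82 within them, had been chosen by the CpG B difference that this fit tests. Calls among them are therefore no separate support. The p-values of this fit measure only the spread of those pairs, which may be technical, and each CpG B group is still 1 array. It called 88 genes (1.23%), 53 higher and 35 lower, of which 85 were among the 190, and 19 genes without the recovered wild-type array and 32 without the recovered knockout array. Of the genes at 2-fold after CpG B alone, 23 were called there, with Il1rn at 1.82 ± 0.20 (adjusted p of 0.019), Il1a at 1.78 ± 0.22 (0.0285), Serpinb2 at 1.68 ± 0.16 (0.0116), Batf at 1.33 ± 0.18 (0.0335), Mef2c at -1.39 ± 0.17 (0.028) and Zdhhc14 at -1.40 ± 0.16 (0.0226), while Slc7a11 (0.129), Mmp13 (0.247) and Abcg1 (0.111) were not. Irak2 was called at -1.51 ± 0.18 with an adjusted p of 0.0226.

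Differences of the 3 genotype pairs, which share no arrays, were related across genes, which are not independent replicates. Over the 6967 genes the CpG B difference had a Pearson correlation of 0.62 with the untreated difference and 0.42 with the R848 difference. Of the 190 genes, 158 had the same sign after R848. 30 of the 190 had other detected probes, 39 in all, of which 23 gave 2-fold in the same direction, 15 the same direction under 2-fold and 1 the opposite. That exception was Taf6, a subunit of TFIID, whose chosen probe gave 2.77 and whose other probe gave -0.26. Fgfr1op2 and Atp2c1 kept their direction, but their other probes gave 0.26 and 0.50 in place of 2.37 and 2.19.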

How the data were processed

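RNA of bone marrow-derived macrophages was hybridised to Illumina mouseRef-8 v2 arrays, 1 per group, with groups taken from the genotype and agent in the labels. The authors deposited probe intensity values, not normalized between arrays, with detection p-values; the submitters' processing notes name BeadStudio without a version. They also deposited quantile-normalized processed values, whose untreated columns fit means of 2 arrays, so that the second array of each could be recovered. In R 4.3.3 with limma 3.58.1, background was inferred from the detection p-values (normexp, offset 16), arrays were quantile normalized and log2 was taken. Of 25697 probes 23978 had 1 gene in the platform annotation, 1719 were not named and 0 had several; RefSeq (GRCm38.p6) gave chromosomes, neighbours and promoters. A gene was represented by its probe with the highest mean log2 value. Single-array differences were counted at a log2 size of 1; limma's p-values were adjusted by Benjamini-Hochberg over 7149 genes, with a threshold of 0.05. Named genes are Irak2, the 15 with the largest difference in each direction, those with the largest contrast to the other conditions or the smallest adjusted p, and members of 18 lists and 8 marker sets. Fcgr2b, Odc1, Alas1, Il15 and other members outside that rule were chosen after their values were seen. The members, the lists and the rule were chosen with earlier results of these data known.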

Additional observations from a re-analysis of the deposited data

Results flagged for a closer look

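In 4 genes with a log2 difference of 1 or more after CpG B, the genotypes were in the opposite order after R848, again by 1 or more. Cish, a suppressor of cytokine signalling, differed by 1.22 after CpG B and by -2.32 after R848. Il1a differed by 1.79 after CpG B and by -1.37 after R848, and Urah, a hydrolase of urate breakdown, by 1.12 and -1.11. These 3 were undetected in wild type after CpG B, so there the knockout was at least 2.1-fold, 3.44-fold and 2.06-fold higher. Lyl1, a haematopoietic transcription factor, differed by -1.27 after CpG B and by 1.27 after R848. It was undetected in wild type after R848, and the bound there was only 1.5-fold. All values are knockout minus wild type on the log2 scale, from 1 array each. The difference between the R848 and CpG B effects was not tested on its own, and limma's interaction of genotype with CpG B called none of the 4.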

How the results depend on the processing

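The count of 190 genes was 126 among genes detected on both CpG B arrays and 136 to 253 under the other alternatives, and the 75 lower genes became 42 in the former and 48 with an offset of 50. Median scaling gave 70% of calls higher in place of 60.5%, and moved the median of all genes from -0.02 to 0.02. Groupings by R848 response under other scalings, by the knockout's response, and over genes detected on both arrays were chosen after seeing the data: the 51 induced genes ranged from 40 to 65, and the 28 repressed genes were 48 without background correction, 15 with an offset of 50 and 17 among genes detected on both CpG B arrays. The fit without the CpG B arrays called 39 genes without background correction, 28 with median scaling, 25 on processed values, 208 with an offset of 50 and 181 among genes detected on all 6 arrays, so its count is not firm. Leaving out 1 condition, the additive fit called 9 genes without the untreated arrays, 90 without CpG B and 279 without R848. The 8-array fit called 19 genes without the recovered wild-type array and 32 without the recovered knockout array. The causes were not tested. No result reversed. No paired analysis was possible because the labels carry no replicate numbers. Differences of dim genes are bounded by background.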
